A study of Mus musculus with 2 samples.

Results

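Myc and the factors that build ribosomes were examined as a group of 44 listed genes, made up of Myc itself and 43 nucleolar or ribosome assembly genes. The members were chosen by name, and 33 of them had a named probe among the 10208 genes with one on the array. The remaining 11, which are Nop56, Dkc1, Nop14, Rrp12, Wdr43, Tsr1, Ltv1, Imp4, Noc2l, Ebna1bp2 and Ddx56, lacked one and are not analysed here. Mouse haematopoietic progenitor cells that lack E2A, the gene that encodes the transcription factors E12 and E47, were infected with E47ER or with bHLHER. Induction with 4-hydroxytamoxifen began 48 h later and lasted 6 h in both arms. In constructs of this kind, ER names a piece of the oestrogen receptor that binds hormone and holds a fused protein inactive until the drug binds. The labels do not say which protein the bHLH part comes from. RNA was read on CodeLink mouse arrays with a Cy5 label, 1 array for each arm. Each group is therefore 1 sample, no value has a replicate check, and no p-value can be given. No uninfected or uninduced array was used here, so a gene that is lower with E47ER may have gone down in that arm or up in the other.

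Ribosomes are assembled in the nucleolus. RNA polymerase I transcribes the precursor of the ribosomal RNA, guide RNPs of the box C/D and box H/ACA classes modify its nucleotides, and large sets of assembly factors cut, fold and export the small and the large subunit. Myc, a transcription factor of growing cells, is known to activate genes at all of these steps, and the gene group is widely used as a readout of growth in progenitor cells and lymphocytes.

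The promoters of the members were searched for the letters of 3 E-boxes, since both Myc and E47 are proteins of the basic helix-loop-helix class that bind such sites. CACGTG is the site favoured by Myc with its partner Max. E proteins favour CAGCTG, and also CAGGTG, which reads as CACCTG on the other strand. RefSeq promoters of build GRCm38.p6, running from 250 bases before to 50 bases after a gene's start, were given for 28 of the 33 members. None was given for Myc. CACGTG was present in 5 of the 28 (17.9%), in 12.2% of 4523 genes measured on both arrays and in 8.09% of all 27025 genes of the promoter table. CAGCTG was also present in 5 of 28 members (17.9%), close to the 16.7% of measured genes and 18.3% of all genes. CAGGTG in either orientation was in none of the 28, against 20.0% of measured genes. Among 48 other ribosome biogenesis genes with a promoter, CACGTG and CAGGTG were each present in 7 (14.6%) and CAGCTG in 6 (12.5%), so the absence of CAGGTG was not shared by other genes of the pathway. Both strands were searched, and since the motifs are different runs of 6 letters, no site counts for more than 1 of them.

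The 10 sites found are shown because they are the only places in these windows where the letters of either factor's site occur. Each window is 30 bases long, is written 5′ to 3′ on the gene's own strand, and carries the E-box in capitals.
Grwd1, chr7:45830740-45830769, minus strand: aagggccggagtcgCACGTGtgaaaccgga
Mybbp1a, chr11:72441347-72441376, plus strand: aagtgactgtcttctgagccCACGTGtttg
Nle1, chr11:82908355-82908384, minus strand: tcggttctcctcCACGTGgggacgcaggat
Nop2, chr6:125131811-125131840, plus strand: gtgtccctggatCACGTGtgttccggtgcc
Pes1, chr11:3963965-3963994, plus strand: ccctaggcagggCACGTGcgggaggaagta
Ddx21, chr10:62602500-62602529, minus strand: ggaaaatgttgcCAGCTGgtaatcccagac
Gar1, chr3:129831481-129831510, minus strand: gacacgcctcacCAGCTGttagcacggaag
Noc3l, chr19:38819366-38819395, minus strand: gcttgagtccttCAGCTGggacgcccactc
Pes1, chr11:3963926-3963955, plus strand: tcagacagccctCAGCTGgcggcgtggggt
Rrp9, chr9:106477158-106477187, plus strand: tgaaggcgtgtcCAGCTGcgtcggtccaat
Counting the start as base 1, the CACGTG of Grwd1, Mybbp1a, Nle1 and Pes1 begins at base 35, 41, 24 and 3, inside the transcribed part, and that of Nop2 begins at base -60. All 5 CAGCTG sites lie before the start, between base -219 in Ddx21 and base -37 in Pes1. A match of letters is a description and does not show binding.

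Levels were the deposited linear intensities, compared within each gene as the log2 ratio of E47ER over bHLHER. The median over all probes of an array, 0.957 for E47ER and 0.953 for bHLHER, served as that array's floor. All 33 members lay above it on both arrays, as did 5534 of the 10141 named genes with a value. Differences were counted at 2-fold, a log2 ratio of 1 or more in either direction, and at a smaller size of 0.5, neither of which is a test. Each member had 1 probe. Among 34 other genes with a pair of probes above the floor, the log2 ratios of a pair differed with an SD of 0.752, or 0.377 without the widest pair. The log2 ratios of 3 members exceeded the first of these in size and those of 14 exceeded the second, so the other 19 were within the spread between probes.

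Transcripts of the group were lower with E47ER almost throughout, by small and similar amounts. Of the 33 members, 31 had a log2 ratio below 0 (93.9%), where 55.8% of all measured genes did. The median log2 ratio of the members was -0.31, a level 19.6% lower with E47ER, against -0.05 over all measured genes. The middle 50% of members ran from -0.45 to -0.20, a width of 0.254, compared with 0.451 for all genes (-0.27 to 0.18). That width was 0.282 for cytosolic ribosomal protein genes, 0.283 for translation factor genes and 0.359 for other ribosome biogenesis genes. A narrow spread was therefore not particular to the members. Only Myc was at least 2-fold lower, 1 of 33 (3.03%) against 0.813% of all genes, and no member was at least 2-fold higher, against 2.31% of all genes. At the smaller rule 4 members were lower (12.1%), a share near the 9.31% of all genes, and none was higher, where 8.17% of all genes were. The members thus shared a small offset. At the 0.5 rule their count on the lower side was near that of all genes, and that on the higher side was not. The median was -0.31 without Myc as well, and -0.30 without the 4 lowest members, 2 repeats added after seeing the data.

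**Figure D1:**
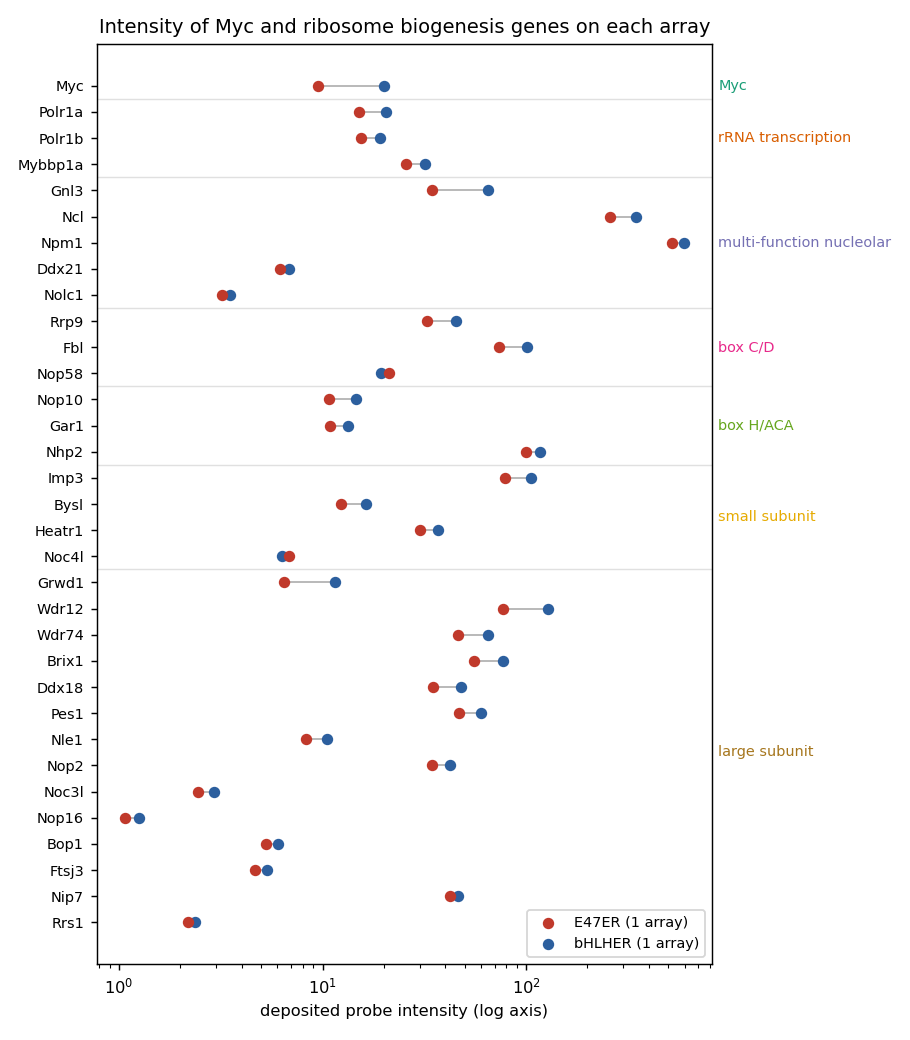
Deposited probe intensity (log axis) of the 33 members on the E47ER array (red) and the bHLHER array (blue), grouped by step, with 1 array per arm and so no error bars. The red point lies left of the blue one in 31 genes and right of it in Nop58 and Noc4l; levels of different genes come from different probes and are not comparable.

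Myc read 9.54 on the E47ER array and 20.1 on the bHLHER array. It was 2.10-fold lower, a log2 ratio of -1.07, and 36 of the 5534 measured genes had a lower ratio. Across all scalings, floors and pseudocounts tried its log2 ratio stayed between -1.28 and -1.01, so it remained just past the 2-fold rule, although the margin is smaller than the spread between probes. Mycn, which encodes the related N-Myc, was at 2.07 with E47ER and 3.31 with bHLHER, a log2 ratio of -0.68. The third family gene, Mycl, lay below the floor on both arrays and has no fold.

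Among the other genes of the Myc network, the partner and its alternative partners were level or higher. Max, the obligate partner of Myc, was at 4.97 with E47ER and 4.58 with bHLHER (log2 0.12). Mxd4, Mxd3 and Mxi1 encode proteins that pair with Max in place of Myc and repress transcription. Mxd4 was at 2.43 with E47ER and 1.51 with bHLHER, a log2 ratio of 0.69. Mxd3 was at 5.12 with E47ER and 4.00 with bHLHER (log2 0.36), and Mxi1 at 6.06 with E47ER and 4.79 with bHLHER (log2 0.34). Mlx (-0.06), Zbtb17, a zinc finger protein that binds Myc (-0.05), and Fbxw7, a ubiquitin ligase subunit that marks Myc for breakdown (0.01), were nearly level on the log2 scale. Zbtb17 lay close to the floor, at 1.12 with E47ER and 1.16 with bHLHER. Mxd1 and Mnt, at or under 0.51 on both arrays, lay below the floor. Of the 15 listed network genes 8 were measured on both arrays, with 5 above 0 and 3 below (37.5%, against 55.8% of all genes). At the 0.5 rule 1 was higher, where 8.17% of all genes were, and 1 lower (12.5%, near the 9.31% of all genes). The median log2 ratio of the 8 was 0.06. It turned to -0.15 when ratios were centred on haematopoietic genes, which moved the median of all genes to -0.26.

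The 3 members that act in rRNA transcription all had a ratio below 0, where 55.8% of all genes did. Only Polr1a passed the smaller spread between probes of 0.377. Polr1a, the largest subunit of RNA polymerase I, was at 15.1 with E47ER and 20.5 with bHLHER, 1.36-fold lower. Polr1b, the second largest subunit, was at 15.4 with E47ER and 19.1 with bHLHER, 1.24-fold lower. Mybbp1a, a nucleolar protein that acts on polymerase I transcription and rRNA processing and whose window holds a CACGTG, was at 25.8 with E47ER and 31.7 with bHLHER, 1.23-fold lower. The median log2 ratio of the 3 was -0.31. Of 14 further genes of this step 12 were measured, with a median of -0.15. Among the 12, 8 were below 0 (66.7%, against 55.8% of all genes) and none was past -0.5, where 9.31% of all genes were. The exception on the higher side was Ubtf, the upstream binding factor of ribosomal DNA, at 21.5 with E47ER and 14.6 with bHLHER (log2 0.56), followed by the selectivity factor gene Taf1b (0.18). Taf1a (-0.32), another selectivity factor gene, and the polymerase subunit gene Polr1e (-0.30) were the lowest of them on the log2 scale. The Taf1a values lay close to the floor, at 1.14 with E47ER and 1.43 with bHLHER.

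The abundant proteins of the nucleolus with several roles had 5 members here, all with a ratio below 0, where 55.8% of all genes lay. Only Gnl3 and Ncl passed the smaller spread between probes of 0.377. Gnl3, which encodes nucleostemin, a GTPase of dividing stem and progenitor cells, was at 34.5 with E47ER and 65.3 with bHLHER. It was 1.89-fold lower, the largest difference after Myc, and 61 of all measured genes had a lower ratio. Ncl, nucleolin, was at 258 with E47ER and 346 with bHLHER, 1.34-fold lower. Npm1, the histone chaperone nucleophosmin, was at 519.7 with E47ER and 597 with bHLHER, 1.15-fold lower. Both genes were bright on the 2 arrays, and Npm1 has processed copies in the genome that a probe may also read. The helicase gene Ddx21 (6.17 with E47ER, 6.81 with bHLHER) and Nolc1, a chaperone of guide RNPs (3.21 with E47ER, 3.50 with bHLHER), were nearly level, with log2 ratios of -0.14 and -0.12.

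Box C/D RNPs place methyl groups on the ribose of rRNA nucleotides. Fibrillarin (Fbl), their methyltransferase, was at 73.8 with E47ER and 101 with bHLHER, 1.37-fold lower. Rrp9, a protein of the box C/D RNP that guides early cleavage of the precursor, was at 32.6 with E47ER and 45.3 with bHLHER, 1.39-fold lower. Nop58, a core scaffold protein of the same particles, was nearly level, at 21.1 with E47ER and 19.4 with bHLHER. Its log2 ratio of 0.12 was within the spread between probes. The median log2 ratio of the 3 was -0.46.

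Box H/ACA RNPs convert uridine to pseudouridine. All 3 measured core protein genes had a ratio below 0, where 55.8% of all genes did. Only Nop10 passed the smaller spread between probes of 0.377. Nop10 was at 10.8 with E47ER and 14.6 with bHLHER, 1.36-fold lower. Gar1 was at 10.9 with E47ER and 13.3 with bHLHER, 1.22-fold lower, and Nhp2 was at 100.3 with E47ER and 117 with bHLHER, 1.17-fold lower. Their median log2 ratio was -0.28. Of 10 listed genes that help to assemble guide RNPs 6 were measured, with a median of -0.27. Among the 6, 5 were below 0 (83.3%, against 55.8% of all genes). The lowest was Ruvbl2, an ATPase of the assembly chaperone complex, at 93.3 with E47ER and 141 with bHLHER (log2 -0.60). Snu13, a core box C/D protein, had a log2 ratio of -0.28. Nufip1, another assembly factor, was level at 27.4 on both arrays, next to Pih1d1 at -0.11 on the log2 scale.

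**Figure D2:**
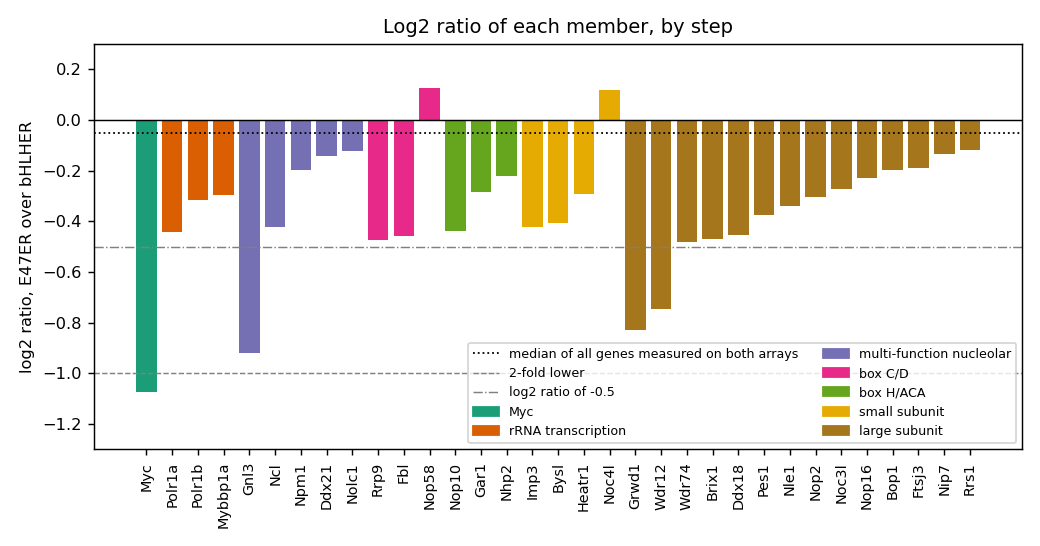
Log2 ratio of E47ER over bHLHER for each of the 33 members, coloured by step, from 1 array per arm and so without error bars. The dotted line is the median of all measured genes (-0.05), and the dashed lines mark log2 ratios of -0.5 and -1, which 4 members and 1 member pass.

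The small subunit had 10 listed members, of which 4 were measured. Imp3, a protein of the early processome, was at 78.8 with E47ER and 106 with bHLHER, 1.34-fold lower. Bysl, bystin, which acts in late maturation of the small subunit, was at 12.3 with E47ER and 16.3 with bHLHER, 1.33-fold lower. Heatr1, a processome protein that also links to polymerase I transcription, was at 30.1 with E47ER and 36.8 with bHLHER, 1.22-fold lower. Noc4l, which acts with Nop14 in the nuclear assembly of this subunit, was slightly higher, at 6.88 with E47ER and 6.34 with bHLHER (log2 0.12). The median log2 ratio was -0.35.

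Further genes of small subunit assembly, taken from a list of 42, had the lowest median among the lists of further assembly genes. Of the 14 measured, 11 were below 0 (78.6%, against 55.8% of all genes) and the median log2 ratio was -0.53. At the 0.5 rule 8 were lower (57.1%, against 9.31% of all genes) and 1 higher, where 8.17% of all genes were. Emg1, an rRNA methyltransferase, was at 79.9 with E47ER and 138 with bHLHER, 1.72-fold lower. Riok2, a kinase of late particles, was at 8.77 with E47ER and 14.0 with bHLHER, 1.60-fold lower. On the higher side were the helicase gene Ddx47 (log2 0.53) and Utp3 (0.31). No gene of the list was past 2-fold, and the median stayed between -0.74 and -0.48 under the alternatives tried.

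The large subunit was covered best, with 14 of 17 listed members measured. All 14 had a ratio below 0, where 55.8% of all genes did. Only Grwd1, Wdr12, Wdr74, Brix1 and Ddx18 passed the smaller spread between probes of 0.377, and only Grwd1 the larger of 0.752. Grwd1, a WD-repeat protein that also binds histones and whose window holds a CACGTG, was at 6.46 with E47ER and 11.5 with bHLHER, 1.78-fold lower. Wdr12 belongs to the PeBoW complex of rRNA processing together with Pes1 and Bop1. It was at 76.9 with E47ER and 129 with bHLHER, 1.68-fold lower. Its partners differed less. Pes1 was at 46.6 with E47ER and 60.3 with bHLHER, 1.30-fold lower, and Bop1 at 5.26 with E47ER and 6.03 with bHLHER, 1.15-fold lower.

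A middle set of large subunit genes lay between 1.37- and 1.40-fold lower. Wdr74 was at 46.5 with E47ER and 64.9 with bHLHER, Brix1 at 55.7 with E47ER and 77.2 with bHLHER, and the helicase gene Ddx18 at 35.1 with E47ER and 48.0 with bHLHER. All 3 act in maturation of precursor particles in the nucleolus. Nle1, a WD-repeat factor needed for haematopoietic stem cells in mice, was at 8.32 with E47ER and 10.5 with bHLHER, 1.27-fold lower. Nop2, an rRNA methyltransferase with a CACGTG before its start, was at 34.4 with E47ER and 42.4 with bHLHER, 1.23-fold lower.

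The remaining 6 large subunit members had log2 ratios between -0.27 and -0.12. Noc3l was at 2.43 with E47ER and 2.93 with bHLHER, and Rrs1 at 2.17 with E47ER and 2.36 with bHLHER. Nop16, known in human cells as a target of Myc, lay close to the floor at 1.07 with E47ER and 1.25 with bHLHER. The methyltransferase gene Ftsj3 was at 4.65 with E47ER and 5.31 with bHLHER, and Nip7, a factor that binds precursor particles, at 42.1 with E47ER and 46.2 with bHLHER. Bop1 is the other member of this set.

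Of 50 further large subunit and rRNA cleavage genes, 24 were measured, with 18 below 0, 3 at least 0.5 lower, none at least 0.5 higher and a median log2 ratio of -0.31. Pop1, a protein of the RNase P and MRP particles, was at 5.63 with E47ER and 10.2 with bHLHER, 1.81-fold lower. Tex10, a partner of the Las1l nuclease in cleaving the precursor, was 1.55-fold lower. Rrp1 (log2 0.47) and Nsa2 (0.26) were the highest. Pelp1 lay above the floor with bHLHER only, at 0.931 with E47ER and 1.07 with bHLHER, so its difference rests on dim values. In the RNA exosome, which trims the precursor, all 5 measured genes were below 0, where 55.8% of all genes were. Their median was -0.19, from Exosc10 (-0.56) and Mphosph6 (-0.44) to Exosc2 (-0.14) and C1d (-0.09).

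Taken as 1 set, the 61 measured genes of ribosome biogenesis outside the members had a median log2 ratio of -0.27. Of them 47 lay below 0 (77.0%, against 55.8% of all genes) and none was past 2-fold. At the 0.5 rule 13 were lower (21.3%, against 9.31% of all genes) and 2 higher, where 8.17% of all genes were. Small subunit genes, members and others together, had a median of -0.41 over 18 genes, and large subunit genes -0.31 over 38. Whether these differ was not tested.

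**Figure D3:**
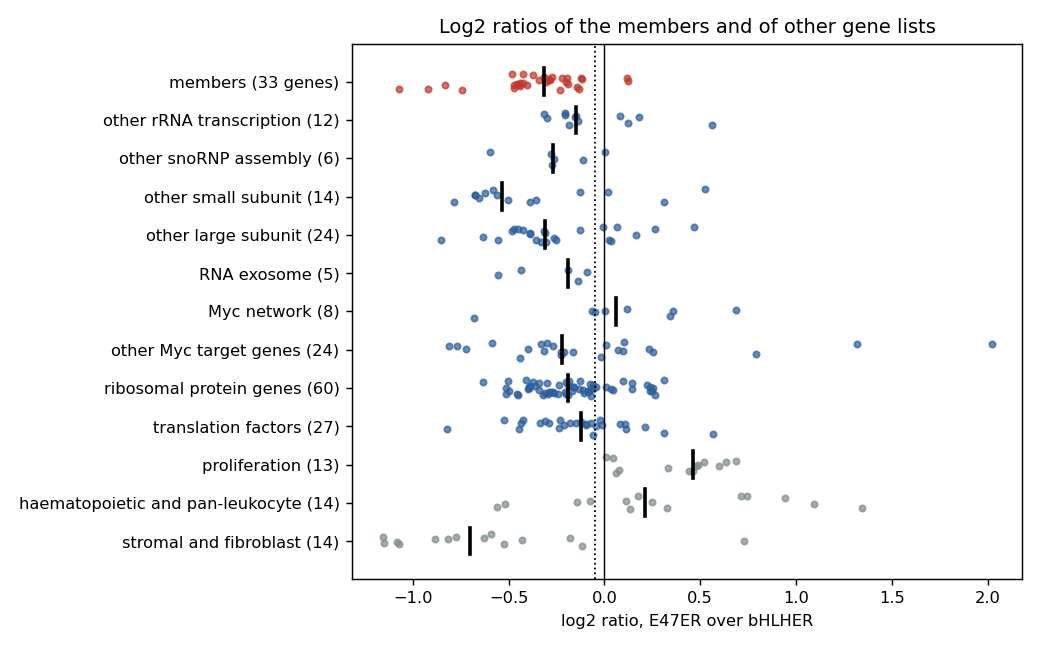
Log2 ratio of E47ER over bHLHER for the members (red), for other gene lists (blue) and for 3 marker lists (grey), with the number of genes measured on both arrays in brackets. Each point is 1 gene, thick black bars are list medians and the dotted line is the median of all genes; the members lie mostly between -0.5 and -0.1, and the proliferation genes all lie above 0.

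Other genes commonly counted as Myc targets were not offset as one. Of 34 listed genes 24 were measured, of which 15 lay below 0 (62.5%, near the 55.8% of all genes). At the 0.5 rule 4 were lower (16.7%, against 9.31% of all genes) and 3 higher, where 8.17% of all genes were. At the 2-fold rule 2 were higher, where 2.31% of all genes were. The median log2 ratio was -0.22, and -0.11 after both quantile normalization and a lowess of the ratio on brightness. C1qbp, a mitochondrial matrix protein needed for translation there, was at 55.6 with E47ER and 97.6 with bHLHER, 1.76-fold lower. Set, a histone chaperone, was at 68.9 with E47ER and 117 with bHLHER, 1.70-fold lower. The transferrin receptor gene Tfrc was at 39.8 with E47ER and 9.79 with bHLHER, 4.06-fold higher. Slc7a5, the transport chain of a large amino acid carrier, was at 2.91 with E47ER and 1.17 with bHLHER, 2.49-fold higher, the bHLHER value being near the floor. Slc3a2, its heavy chain, chosen after its value was seen, had a log2 ratio of 0.79.

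The ribosome's own protein genes and the translation factor genes were lower by less. The 60 measured cytosolic ribosomal protein genes had a median log2 ratio of -0.19, with 47 below 0 (78.3%, against 55.8% of all genes). At the 0.5 rule 4 were lower (6.67%, under the 9.31% of all genes), and none was past 2-fold. The 60 genes ranged from Rps3a1 (467 with E47ER, 724 with bHLHER) and Rpl11 (521 with E47ER, 745 with bHLHER) to Rps2 (log2 0.26) and Rpl31 (0.31). Their median depended on scaling, with -0.05 after a lowess of the ratio on brightness and -0.01 after quantile normalization, whereas that of the members was -0.25 and -0.28. Ribosomal protein genes also have many processed copies that probes may read. The 27 measured translation factor genes had a median of -0.12 (-0.07 after quantile normalization and -0.05 after the lowess), with 21 below 0 (77.8%). The list ran from Eef1e1 (-0.82) and Eif2s3x (-0.53) to Eef2k (0.31) and Eif4ebp2 (0.56). Not all of its genes encode factors. Eef2k and Eif4ebp2 encode inhibitors of translation and Eef1e1 a partner of tRNA synthetases, so the list median mixes roles. With 1 array per arm, the differences between these medians and that of the members were not tested.

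Brightness was examined because brighter genes had lower ratios in general. The median log2 ratio of all measured genes was -0.01 in the dimmest of 4 equal bins of brightness and -0.11 in the brightest. In the brightest bin 63.3% of all genes were below 0, and 16 of 16 members there were, with a median of -0.42. In the next bin the median was -0.06 for all genes and -0.41 for 9 members, of which 8 were below 0. In the second dimmest it was -0.01 for all genes and -0.17 for 6 members, and in the dimmest it was -0.01 for all genes and -0.17 for Nop16 and Rrs1, the only members there. The median of the members was below that of all genes in each of the 4 bins. In the dimmest bin, however, the ratios of Nop16 and Rrs1 both lay within the smaller spread between probes. After the lowess 31 of 33 members were below 0, where 50.04% of all genes were. The part of brightness in the offset of the members was not tested.

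**Figure D4:**
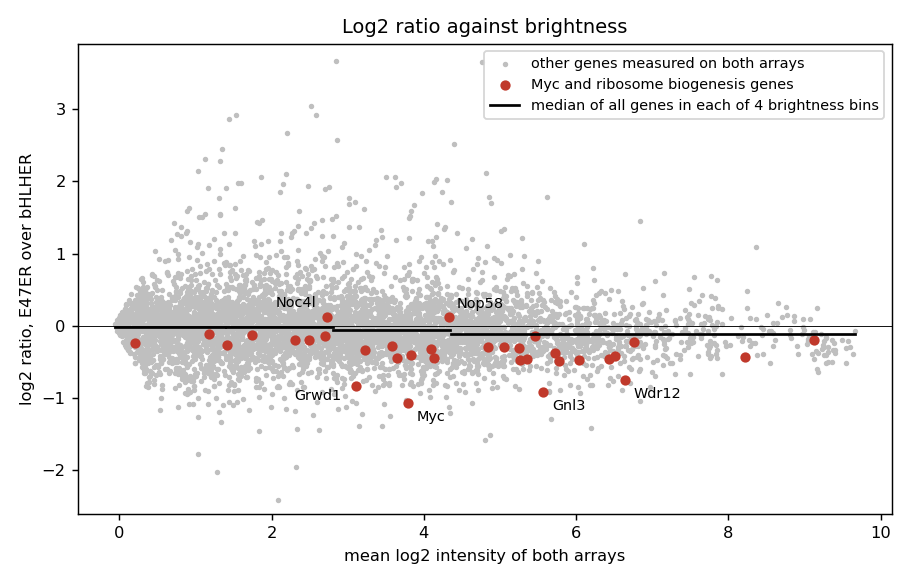
Log2 ratio of E47ER over bHLHER against the mean log2 intensity of both arrays, for the 33 members (red) and the other genes measured on both arrays (grey). Black lines are the medians of all genes in 4 equal bins of brightness, from -0.01 to -0.11, and 31 members lie below 0.

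Markers of cell type and of division also differed between the arrays. Progenitor and leukocyte markers were present, with the pan-leukocyte gene Ptprc at 36.2 with E47ER and 18.8 with bHLHER. The progenitor receptor genes Kit (log2 0.17) and Flt3 (0.13) were above the floor on both arrays and nearly level. Of 20 such genes 14 were measured on both arrays, with a median of 0.21 on the log2 scale. Among the 14, 10 had a ratio above 0 and 4 one below it (28.6%, against 55.8% of all genes). Summed intensities over 15 genes were 371 for E47ER and 257 for bHLHER. Cd52 (1.35) and Laptm5 (1.09) were highest and Cd53 (-0.56) and Spn (-0.52) lowest, and Lcp2, at 0.775 with E47ER and 1.46 with bHLHER, was above the floor with bHLHER only. Of 24 stromal and fibroblast genes 14 were measured on both arrays, with a median of -0.70. Among the 14, 13 lay below 0 (92.9%) and 4 were at least 2-fold lower (28.6%, against 0.813% of all genes). Summed intensities over 19 genes were 88.4 for E47ER and 135 for bHLHER. Bgn (-1.16) and Col6a1 (-1.15) were lowest and Igfbp4 (0.73) highest, and Dcn, Lum, Postn, Thy1 and Vcam1 lay below the floor on both arrays. The part of these marker differences in the offset of the members was not tested, and fewer cells of a type and less RNA per cell cannot be told apart in such samples.

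Proliferation genes had log2 ratios at or above 0, unlike most ribosome biogenesis genes. All 13 measured on both arrays had a log2 ratio above 0, with a median of 0.46, where 55.8% of all genes lay below 0. Of the 13, 4 were at least 0.5 higher, where 8.17% of all genes were. The mitotic checkpoint kinase gene Bub1 (0.69) and cyclin B2, Ccnb2 (0.63), were highest, and Pcna (0.01) and the helicase subunit gene Mcm5 (0.04) lowest. Centring on haematopoietic genes, which lowers every log2 ratio by 0.21, puts the lowest of these genes, Pcna and Mcm5 among them, below 0. The lower level of ribosome biogenesis transcripts with E47ER thus stood beside equal or higher levels of these division genes on the same array.

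Centring the ratios on the haematopoietic and pan-leukocyte genes lowered every log2 ratio by 0.21, including the median of all genes. With it 33 of 33 members were below 0, where 77.5% of all genes were. At least 0.5 lower were 20 of the 33, against 23.5% of all genes. Gnl3 (-1.13) and Grwd1 (-1.04) joined Myc past the 2-fold rule, which 2.44% of all genes then passed on the lower side. Since it shifts all genes alike, this centring leaves the distance between the members and all genes as it was, and the larger counts reflect the shift.

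Among the 28 members with a promoter, the ratios did not follow the E-box letters of their windows closely. The 5 without one, Myc among them, are left out of this comparison. The 5 members with CACGTG had a median log2 ratio of -0.34, between -0.83 for Grwd1 and -0.30 for Mybbp1a, and the 23 without it had -0.31, between -0.92 for Gnl3 and 0.12 for Nop58. The 5 members with CAGCTG had a median of -0.28 and the 23 without it -0.34. With so few genes in each set, these are descriptions only.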

How the data were processed

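The authors deposited 1 table of linear probe intensity values for 2 arrays and 20289 probes. The sources used here do not give the authors' steps behind these intensity values, such as scaling or background removal. The arrays' medians differed by 0.418%, so values were used without further scaling. 119 probes on the E47ER array and 125 on the bHLHER array had no value, and 45 and 84 were at or below 0 and had no ratio. The platform annotation named 10349 probes, and all their gene identifiers matched the RefSeq table of GRCm38.p6, used for names. For a gene with several probes, the one with the highest mean was taken. The 4 older symbols Twistnb, Cd3eap, Znrd1 and Phb were matched by hand.

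The number of arrays limits the precision. Python 3.11.15, pandas 2.3.3 and statsmodels 0.14.6 were used, and the ratio calculation was tested on simulated data. The members and lists were chosen with earlier results of these data known. All members could be named, all Myc network genes, and of the other lists the 2 highest, the 2 lowest and any gene past 2-fold, with exceptions named in the text. Alternatives were quantile normalization, lowess, 75th percentile scaling, centring on haematopoietic genes, no floor or one at the 25th or 75th percentile, the mean over probes, a pseudocount at the 25th percentile and a size threshold of 0.75.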

Additional observations from a re-analysis of the deposited data

How the results depend on the processing

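No paired analysis was possible because each arm has 1 array, and so no repeat without a replicate exists. Centring on haematopoietic and pan-leukocyte genes moved the median log2 ratio of the members to -0.53. The count at least 0.5 lower went to 20 of 33, against 23.5% of all genes. The count at least 2-fold lower went to 3 of 33, against 2.44% of all genes. This centring also turned Nop58 to -0.086, Noc4l to -0.095 and the Myc network median to -0.15. It moved the median of all genes to -0.26 as well, so these 3 values stayed above that median. A size threshold of 0.75 in place of 1 gave 3 lower members. Under the other settings, which were quantile normalization, lowess, 75th percentile scaling, 3 floors, the mean over probes and the pseudocount, the median of the members stayed between -0.41 and -0.25 and the count at least 0.5 lower was 4 each time. The share of all genes at least 0.5 lower ran from 7.34% after the lowess to 13.6% without a floor. With the floor at the 75th percentile 27 members were left, 25 of them below 0, where 60.0% of all genes were. Dim probes such as Nop16, Rrs1 and Noc3l carry the least certain ratios.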
